A study of Mus musculus with 4 samples.

Results

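The cytochrome P450 genes of the mouse were examined in prostate RNA of male C57BL/6 mice, 4 in all. The members were all genes whose symbol is Cyp followed by 1 digit, 1 letter and a digit, which takes the P450 families with single-digit numbers. Symbols marked as pseudogenes by the suffix -ps were left out. This gave 78 of the 22180 genes that the arrays measured with a probe set of 1 gene symbol. A further 16 P450 genes do not have such a symbol, mostly because their family number has more digits, and they are described beside the members. The labels give vasectomy, which interrupts the vas deferens, in 2 mice and sham surgery as the control in the other 2, all on the same C57BL/6 background, with 1 array per mouse. They place both operations at 16 weeks of age and harvest at 24 weeks of age, and one label field counts the 24 weeks from surgery instead. The paper gives an earlier age at surgery and names the dorsolateral lobe, whereas the labels name the lateral prostate. Precision is limited by having 2 mice a group: for a single gene, the smallest p of an exact permutation test (two-sided) is then 0.333.

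P450 enzymes are haem proteins that add an oxygen atom to their substrates. Most lie in the endoplasmic reticulum and take electrons from a flavoprotein reductase, helped in part by cytochrome b5, while the mitochondrial members use a ferredoxin. The Cyp1, Cyp2 and Cyp3 families handle mainly drugs, toxicants and some steroids, the Cyp4 family mainly fatty acids, and the Cyp7 and Cyp8 families sterols and bile acids. In the prostate the family is known mainly for enzymes that make or break down sex steroids.

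All values were log2 signals after RMA, the authors' background subtraction, quantile normalization and summary of each probe set. A difference of 1 is therefore a 2-fold change, and signals of different probe sets are not compared as amounts of RNA. Background was represented by a stand-in level of 4.63, below which 95% of 1394 olfactory and vomeronasal receptor genes had their means, receptors of the sensory epithelia. By their means over the 4 arrays, all 9 measured luminal secretory markers of the prostate lay above it. The vasectomy 2 array stood apart. It correlated with the others at 0.970 to 0.976 across genes, which are not independent replicates, and the others with each other at 0.984 to 0.989. Its values were the lowest for 7 of those 9 luminal markers and the highest for all 7 measured seminal vesicle markers. In that array the luminal markers Sbp and Spink1 read 3.37 and 4.92, against 12.37 or more in the others. Tgm4, another luminal marker, read 13.01 there, against 12.89 to 13.13 elsewhere. The seminal vesicle markers Svs2 and Svs5 read 13.17 and 13.40 in vasectomy 2, and 12.49 and 13.06 in sham 1. Values without vasectomy 2 are given beside the named members whose difference it moved most. In whole tissue, fewer cells of a type and less RNA per cell cannot be told apart.

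Most P450 members gave little signal in the prostate. By the mean of the 4 arrays, 26 of the 78 (33.3%) lay above the stand-in, against 61.1% of all genes. Of the members, 18 were above it in every array, and 49 were below it in every array. The large subfamilies with mainly hepatic members were mostly below it. Of 14 Cyp2c genes 1 was above it (Cyp2c55), of 9 Cyp2d genes 1 (Cyp2d22), of 7 Cyp3a genes 1 (Cyp3a11) and of 5 Cyp2b genes 1 (Cyp2b10). Cyp1a1 and Cyp1a2, the classical targets of the aryl hydrocarbon receptor, were both below it in all 4 arrays. Cyp7a1, the rate-limiting enzyme of bile acid synthesis in liver, had a mean of 3.07. Among hepatocyte markers, the summed signal (log2) was 7.87 and 7.84 after vasectomy and 7.85 and 7.90 after sham surgery, and 4 of the 8 measured markers lay below the stand-in (Fgb, Serpina1a, Tat and Cps1). The subfamilies with several members above it were Cyp2j (3 of 7), Cyp4a (3 of 6) and Cyp4f (3 of 9). The member nearest above the stand-in was Cyp8b1 at 4.68 and the nearest below was Cyp3a57 at 4.49.

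**Figure D1:**
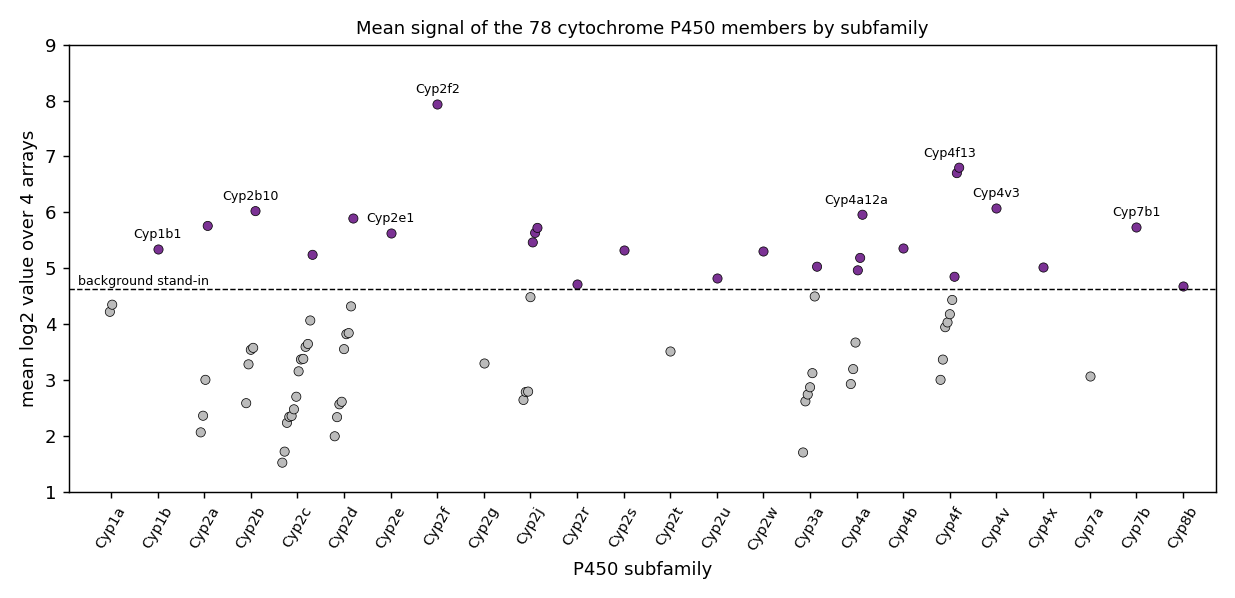
Mean log2 value over the 4 arrays (vertical axis) of each of the 78 P450 members, by subfamily (horizontal axis). Each point is a gene, purple above and grey below the background stand-in of 4.63 (dashed line). Of the 78 genes 26 lie above the line, and Cyp2f2 has the brightest probe set.

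Between vasectomized and sham mice, limma with Benjamini-Hochberg adjustment called 0 of the 78 members at an adjusted p under 0.05, and 0.0% of the 22180 genes in either direction. Before adjustment, 4 members with a higher mean and 2 with a lower mean had p under 0.05, a level reached by 0.974% and 1.07% of all genes. The paper's methods name Student's t-test for numerical data and give no test for the arrays. By that test, here called the methods' t-test, 3 members (1.62% of all genes) were higher and 0 (1.76% of all genes) lower before adjustment, and 0 after it. The means of 47 members were higher in vasectomized mice, 29 were lower and 2 were equal. Their median difference was 0.04, against 0.00 over all genes, and without vasectomy 2 it was 0.06. Among the 26 members above the stand-in, 13 were higher and 12 lower with a median of 0.01, and 0.01 was also the median of all genes above it. Without sham 2 the median of these members was -0.14. The groups did not overlap for 15 members on the higher side and 6 on the lower side, beside 12.5% and 12% of all genes. Of these, 11 and 5 had a mean below the stand-in, so 4 and 1 had a mean above it. Among all 13556 genes above the stand-in, the groups did not overlap for 1767 on the higher side and 1215 on the lower side.

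Cyp2e1 and Cyp3a57 were the 2 members (2.56%) whose mean was 2-fold or more higher after vasectomy without overlap of the groups, a pattern found in 0.0857% of all genes. For Cyp3a57 this rests on sham values below the stand-in, and among members above it the count was 1, Cyp2e1. Without vasectomy 2 the count over all members was 1, but that member was Cyp3a57, and Cyp2e1 fell under 2-fold. At this setting the share of all genes was not counted. On the lower side there were 0 such members, beside 0.108% of all genes. Cyp2e1, the ethanol-oxidizing P450 of liver that is also made in fat, had log2 values of 5.66 in vasectomy 1 and 6.95 in vasectomy 2, against 4.89 in sham 1 and 5.02 in sham 2 (probe set 17484587). Both vasectomized mice lay above both sham mice, and vasectomy 2 was the highest. The difference was 1.35 (standard error 0.41, 95% interval 0.34 to 2.36), a 2.55-fold higher mean, with an unadjusted p of 0.017 and an adjusted p of 0.9997 from limma (exact permutation test, two-sided, p = 0.333). Without vasectomy 2 it was 0.71, which is under 2-fold, and within the numbered pairs it was 0.77 and 1.93.

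Markers of several other cell types, fat among them, had higher means along with Cyp2e1. All 7 measured adipocyte markers had a higher mean in vasectomized mice, and 6 were highest in vasectomy 2. The groups did not overlap for 4 of them. Lep, Adipoq and Plin1 differed by only 0.06, 0.115 and 0.17, and their groups overlapped. Car3 was at 6.07 and 9.16 in vasectomized mice and at 5.33 and 5.35 in sham mice. Their summed signal (log2) was 7.95 and 10.11 after vasectomy and 7.60 and 7.55 after sham surgery. Fabp4, the fatty acid binding protein of adipocytes, was at 6.28 and 8.16 in vasectomized mice and at 5.72 and 5.53 in sham mice. Adipoq and Lep, which encode the adipocyte hormones adiponectin and leptin, had means below the stand-in. All 6 smooth muscle markers also had a higher mean in vasectomized mice and were highest in vasectomy 2, and their groups did not overlap for 5. Their summed signal (log2) was 13.62 and 13.92 after vasectomy and 13.50 and 13.33 after sham surgery. Higher means were likewise found for 6 of 6 fibroblast, 5 of 5 macrophage and 4 of 5 endothelial markers. The limma adjusted p was 0.9997 for every gene of these lists. The part of fat or of the other cell types in the Cyp2e1 values was not tested.

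Cyp3a57, of the Cyp3a subfamily, had log2 values of 4.93 and 5.36 in vasectomized mice and 4.06 and 3.62 in sham mice (probe set 17444682). Both vasectomized mice were above the stand-in and both sham mice below it. The measured difference was 1.31 (standard error 0.24, 95% interval 0.72 to 1.89), with an unadjusted p of 0.0016, the smallest of the family, and an adjusted p of 0.9997 from limma (exact permutation test, two-sided, p = 0.333). Counted against the stand-in instead of the dim sham values, the mean was at least 1.43-fold higher. The measured difference was 1.09 without vasectomy 2 and between 1.08 and 1.53 when each array was left out in turn, with the sham values below the stand-in throughout. The mouse Cyp3a genes are close copies of each other, and how far this probe set reads its neighbours was not tested. Of the other 6 Cyp3a genes, 5 lay below the stand-in, and no fold is read from them. Cyp3a11, the main Cyp3a enzyme of mouse liver, was at 5.35 in vasectomy 1 and 4.18 in vasectomy 2, against 5.29 in sham 1 and 5.28 in sham 2, so that 1 array alone was low. Its difference of -0.52 (limma adjusted p 0.9997) was 0.07 without vasectomy 2.

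Upstream sequences are shown for Cyp3a57 and for 4 of the 5 members that spanned more than 2 on the log2 scale, so that the genes behind these values can be placed. The other such member is Cyp4a12a. RefSeq holds a promoter for 62 of the 78 members, and the 250 bases before the start of transcription are printed for 5 of them, read on the gene's own strand in build GRCm38.p6. They are those of Cyp2e1 (chr7:140763569-140763818, plus strand), Cyp3a57 (chr5:145345019-145345268, plus strand), Cyp2f2 (chr7:27119705-27119954, plus strand), Cyp2b10 (chr7:25897408-25897657, plus strand) and Cyp2j13 (chr4:96077548-96077797, minus strand, the more upstream of its starts). Capitals mark 4 short motifs sought on both strands: AGGTCA, which nuclear receptors bind, AGAACA, which the androgen receptor binds, TATAAA, the TATA box, and GCGTG, which the aryl hydrocarbon receptor binds.
Cyp2e1: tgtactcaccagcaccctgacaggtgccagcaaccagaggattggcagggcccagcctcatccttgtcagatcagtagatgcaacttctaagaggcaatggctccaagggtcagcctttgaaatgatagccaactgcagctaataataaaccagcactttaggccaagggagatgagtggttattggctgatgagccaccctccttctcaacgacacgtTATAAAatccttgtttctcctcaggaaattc
Cyp3a57: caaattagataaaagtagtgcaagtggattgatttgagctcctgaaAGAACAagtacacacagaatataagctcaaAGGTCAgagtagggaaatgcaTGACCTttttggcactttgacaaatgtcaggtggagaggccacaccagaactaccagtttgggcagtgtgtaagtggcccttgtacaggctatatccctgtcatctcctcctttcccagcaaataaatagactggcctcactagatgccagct
Cyp2f2: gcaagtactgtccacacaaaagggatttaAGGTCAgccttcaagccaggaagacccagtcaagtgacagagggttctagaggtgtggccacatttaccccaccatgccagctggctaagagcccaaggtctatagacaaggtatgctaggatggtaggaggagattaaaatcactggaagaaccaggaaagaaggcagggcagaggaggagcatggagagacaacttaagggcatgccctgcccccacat
Cyp2b10: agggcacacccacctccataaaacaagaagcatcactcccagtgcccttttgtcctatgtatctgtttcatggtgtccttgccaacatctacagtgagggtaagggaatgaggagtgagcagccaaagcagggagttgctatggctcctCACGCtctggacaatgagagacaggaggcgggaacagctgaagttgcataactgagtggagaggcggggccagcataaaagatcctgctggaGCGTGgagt
Cyp2j13: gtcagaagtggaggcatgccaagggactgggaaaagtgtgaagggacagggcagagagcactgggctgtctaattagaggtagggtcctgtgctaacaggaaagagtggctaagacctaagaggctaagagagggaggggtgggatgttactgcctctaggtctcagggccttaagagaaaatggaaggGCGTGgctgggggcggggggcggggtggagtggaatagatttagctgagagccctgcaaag
The Cyp2e1 window holds TATAAA, which begins 31 bases before the start. The Cyp3a57 window holds AGGTCA on each strand, beginning 174 and 153 bases before the start, and AGAACA at 204 bases. Cyp2f2 has AGGTCA at 221 bases, Cyp2b10 has GCGTG at 9 bases and on the other strand at 101 bases, and Cyp2j13 has GCGTG at 61 bases. No 2 of these matches overlap. Over windows of this length for all 32851 promoters of the table, 14.0% held AGGTCA, 16.1% AGAACA, 12.4% TATAAA and 28.2% GCGTG. Over the 69 promoters of the 62 members the shares were 24.6%, 23.2%, 33.3% and 18.8%. A match describes the letters only.

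Of the 26 members above the stand-in, 5 spanned more than 2 on the log2 scale over the 4 arrays, beside 1.13% of all genes above it. Without vasectomy 2 the count was 0, beside 0.199% of all genes above the stand-in, and without sham 1 it was 3, beside 0.863%. These 5 were Cyp4a12a, Cyp2b10, Cyp2j13, Cyp2f2 and Cyp2e1, and in all 5 vasectomy 2 was the highest or the lowest array. Cyp4a12a, a fatty acid hydroxylase that androgen raises in mouse kidney, had log2 values of 4.69 in vasectomy 1 and 8.90 in vasectomy 2, against 6.07 in sham 1 and 4.16 in sham 2. Vasectomy 2 and sham 1 were high and the other mouse of each group was low, so the groups overlapped. The difference of 1.68 (standard error 1.36, 95% interval -1.67 to 5.03, limma adjusted p 0.9997) turned to -0.43 without vasectomy 2. Cyp2j13, of a subfamily that includes arachidonic acid epoxygenases, had the same order of arrays. Its log2 values were 5.14 in vasectomy 1 and 6.88 in vasectomy 2, against 6.11 in sham 1 and 4.39 in sham 2. Its difference of 0.76 (standard error 0.73, limma adjusted p 0.9997) turned to -0.11 without vasectomy 2 and to -0.10 without sham 2.

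The summed signal of the seminal vesicle markers, from the gland beside the prostate, was also higher in vasectomy 2 and sham 1 than in the other arrays. It was 11.40 in vasectomy 1 and 14.62 in vasectomy 2, against 13.96 in sham 1 and 11.48 in sham 2 (log2). Svs2, Svs4 and Svs5 were the brightest of the 7 measured markers, and each was highest in vasectomy 2 and next in sham 1. The other markers did not all follow that order: Svs1 read 3.86 and Svs3b 2.41 in sham 1, both under their vasectomy 1 values of 3.97 and 2.50. By their means 5 markers lay above the stand-in, and Svs3a and Svs3b lay below it. The part of seminal vesicle RNA in these P450 values was not tested.

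Cyp2f2 and Cyp2b10 went the other way. Cyp2f2, the enzyme that activates naphthalene in the club cells of mouse lung, had log2 values of 8.33 in vasectomy 1 and 6.65 in vasectomy 2, against 8.83 in sham 1 and 7.95 in sham 2. Sham 1 was highest and vasectomy 2 lowest, and vasectomy 1 lay between the sham mice. The difference of -0.90 (standard error 0.58, 95% interval -2.32 to 0.52, limma adjusted p 0.9997) was -0.06 without vasectomy 2. A second, dimmer Cyp2f2 probe set gave 6.20, 5.40, 6.29 and 6.01 in the same order of arrays. Cyp2b10, the phenobarbital-inducible P450 of mouse liver, had log2 values of 6.47 in vasectomy 1 and 4.16 in vasectomy 2, against 7.41 in sham 1 and 6.04 in sham 2. Vasectomy 2 was the lowest and lay below the stand-in, while the other vasectomized mouse lay between the sham mice. Its difference was -1.41 (standard error 0.80, 95% interval -3.38 to 0.56, limma adjusted p 0.9997), and -0.26 without vasectomy 2. The summed signal of the 9 luminal secretory markers was 15.20 in vasectomy 1 and 14.00 in vasectomy 2, against 15.14 in sham 1 and 15.11 in sham 2 (log2), and 0 of the 9 lay below the stand-in. Within that list probasin (Pbsn) read 12.49 in vasectomy 2 against 12.39 to 12.79 elsewhere, unlike Sbp, the spermine-binding protein, and Spink1. Cyp2f2 and Cyp2b10 had the same order of arrays, falling from sham 1 through vasectomy 1 and sham 2 to vasectomy 2. Msmb, Spink1, Hoxb13 and Fkbp5 of the luminal list had this order too, and its other markers did not. Among urothelial markers, of the urinary tract lining, Upk1a had it, from 9.40 down to 6.05, but Upk1b, Upk2 and Upk3a did not. Their summed signal (log2) was lowest in vasectomy 2, at 10.07, and 10.50 to 10.78 elsewhere. The part of secretory or urothelial cells in the Cyp2f2 and Cyp2b10 values was not tested.

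**Figure D2:**
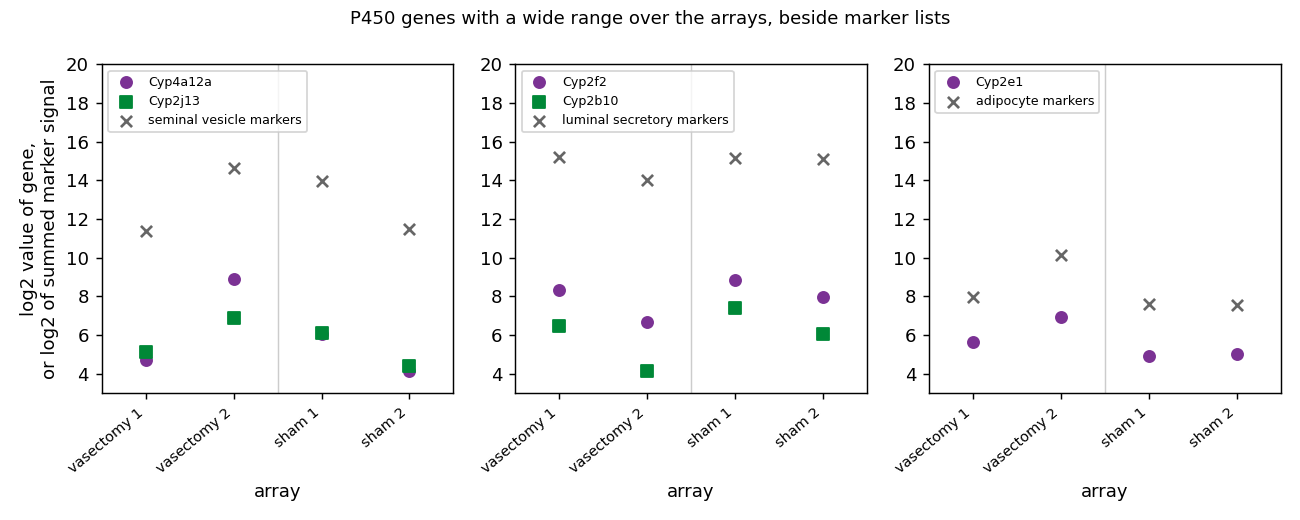
Log2 values in each array (horizontal axis) of the 5 P450 genes that spanned more than 2 (coloured points), beside the log2 of the summed signal of a marker list (grey crosses). Cyp4a12a and Cyp2j13 were highest in vasectomy 2 and sham 1, Cyp2f2 and Cyp2b10 were lowest in vasectomy 2, and Cyp2e1 was highest in vasectomy 2 and next in vasectomy 1.

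Cyp4a12b, a close copy of Cyp4a12a, was the member above the stand-in whose groups did not overlap on the lower side. It was at 4.79 and 4.81 in vasectomized mice and at 5.24 and 5.89 in sham mice. This is a difference of -0.77 (standard error 0.24, 95% interval -1.37 to -0.16), with an unadjusted p of 0.0209 and a limma adjusted p of 0.9997. It was -0.78 without vasectomy 2, -0.44 without sham 2 and -1.09 without sham 1. The genes are alike enough in sequence that a probe for one may read the other, so the values of both are uncertain. The highest array was vasectomy 2 for Cyp4a12a and sham 2 for Cyp4a12b, and how far their probe sets share signal was not tested. Cyp4a31, the third Cyp4a gene above the stand-in, differed by -0.01.

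Smaller differences with no overlap were seen in Cyp1b1, Cyp2d22 and Cyp2j9. Cyp1b1, which oxidizes estradiol and polycyclic hydrocarbons, was at 5.27 and 5.92 in vasectomized mice and at 5.04 and 5.17 in sham mice. The difference of 0.49 (standard error 0.25, limma adjusted p 0.9997) was 0.17 without vasectomy 2. Cyp2j9 was the tightest, at 5.55 and 5.59 against 5.32 and 5.38, a difference of 0.22 (95% interval -0.16 to 0.60). Cyp2d22 was at 5.98 and 6.07 against 5.95 and 5.55, so the lower vasectomy value and the higher sham value nearly met. Both had a limma adjusted p of 0.9997.

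**Figure D3:**
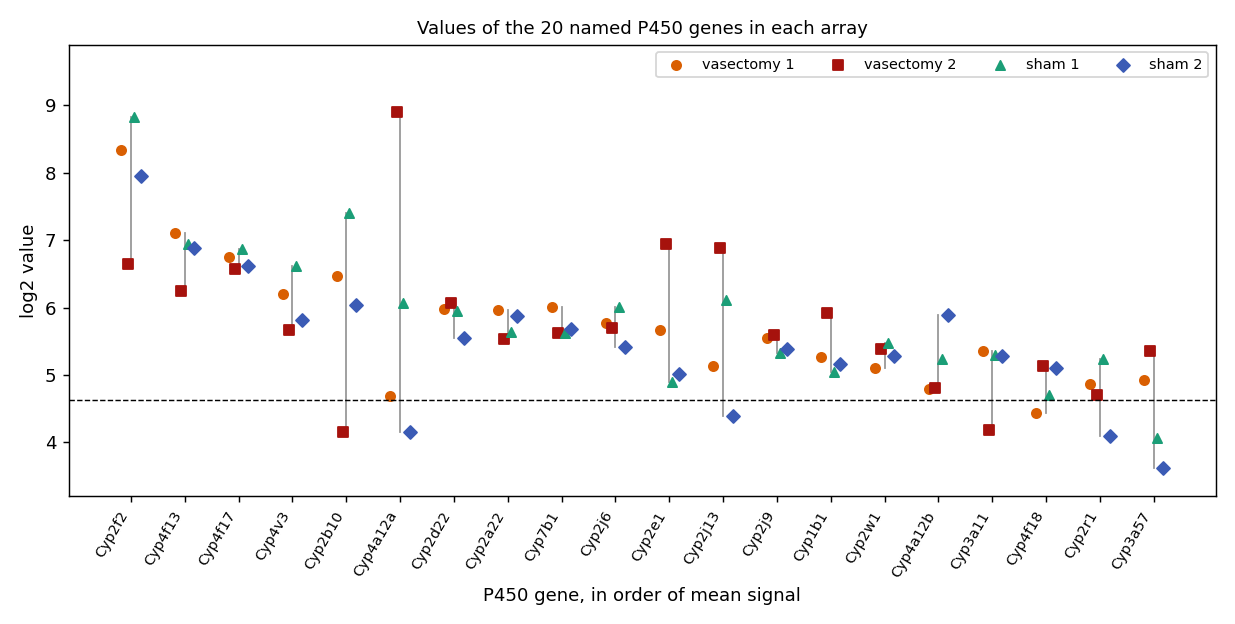
Log2 values (vertical axis) of the 20 P450 genes chosen by signal, difference or range, with 1 point per array and genes in order of mean signal (horizontal axis). Grey lines span the 4 arrays and the dashed line is the background stand-in of 4.63. The widest span is that of Cyp4a12a, from 4.16 to 8.90, and the narrowest that of Cyp2j9, from 5.32 to 5.59.

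In the other named members the groups overlapped. Cyp4f13 and Cyp4f17, of a subfamily of fatty acid and leukotriene hydroxylases, differed by -0.24 (95% interval -0.98 to 0.49) and -0.08 (95% interval -0.52 to 0.36). Without vasectomy 2 the latter was 0.01. For Cyp4f13 the vasectomy 2 value was 6.24 and the others lay between 6.89 and 7.11, so that the difference was 0.19 without vasectomy 2. Cyp4f18, a leukotriene hydroxylase of mouse neutrophils, differed by -0.13, and by -0.48 without vasectomy 2. Cyp4v3, a fatty acid hydroxylase whose human counterpart is mutated in a crystalline dystrophy of the eye, differed by -0.28, and by -0.015 without vasectomy 2. Cyp7b1, which hydroxylates oxysterols and an estrogenic metabolite of androgens in the prostate, was at 6.01 and 5.62 in vasectomized mice and at 5.62 and 5.68 in sham mice. Its difference was 0.16 (95% interval -0.31 to 0.64), or 0.36 without vasectomy 2, and the vasectomized mice differed from each other by more than that. Cyp2r1, a microsomal vitamin D hydroxylase, differed by 0.12, Cyp2j6 by 0.02, Cyp2a22 by 0.00 and Cyp2w1 by -0.13. Without vasectomy 2 these were 0.20, 0.06, 0.22 and -0.27. Cyp4f18 and Cyp2r1 were among the dimmest members above the stand-in, each with 1 array below it. None of these genes had a limma adjusted p below 0.9997.

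**Figure D4:**
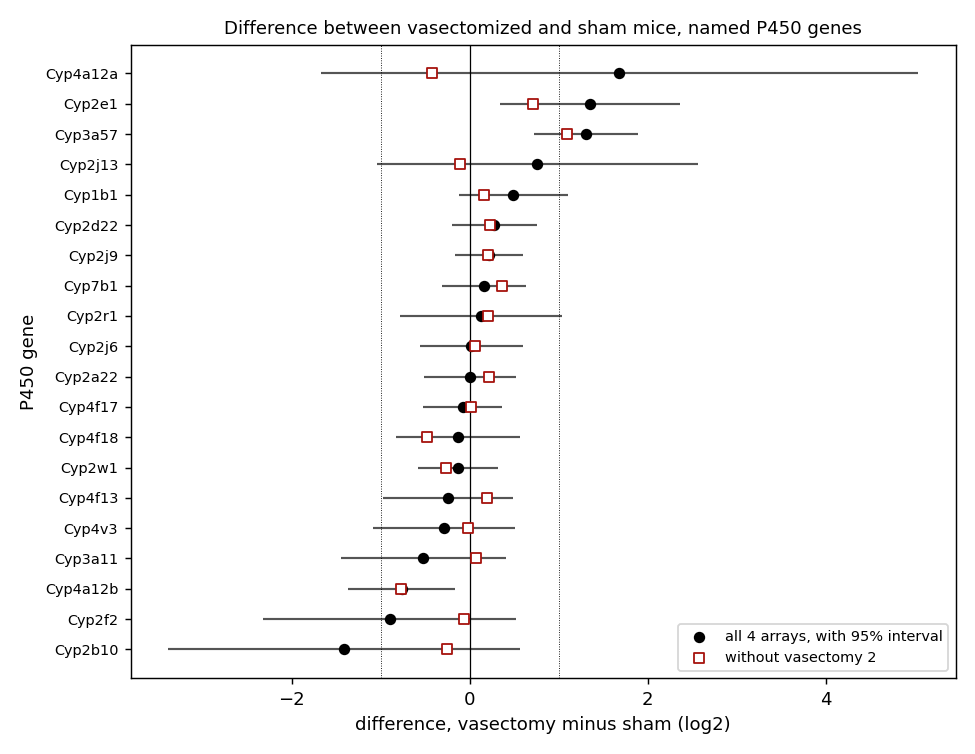
Difference between vasectomized and sham mice on the log2 scale (horizontal axis) for the 20 named P450 genes (vertical axis). Black points use all 4 arrays with the 95% interval from limma, and open squares leave out vasectomy 2. Dotted lines mark 2-fold. Cyp2e1 and Cyp3a57 have intervals above 0 and Cyp4a12b below 0, before adjustment over all genes.

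The remaining 7 members above the stand-in, among them Cyp4b1, Cyp2s1 and Cyp8b1, had values from 4.48 to 5.62 and differences from -0.09 to 0.08. The 51 members other than Cyp3a57 with a mean below the stand-in had differences from -0.75 to 0.64, and no fold is read from them. Of the 6 members at an unadjusted p under 0.05 in limma, Cyp2b19, Cyp2c37 and Cyp2d9 belong to these, and they are named only after their values were seen. So are Cyp2b19 and Cyp2d40 among the 3 members past that level by the methods' t-test, the third being Cyp2j9. Cyp4f15, also singled out after its values were seen, was above the stand-in in vasectomy 2 alone, at 5.35, with the others between 3.63 and 4.08.

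Of the P450 genes with a Cyp symbol outside the pattern, 7 of 16 lay above the stand-in and 0 passed an adjusted p under 0.05 in limma. The measured enzymes that make steroid hormones were not among them. Of 6 listed, 5 were measured, and aromatase (Cyp19a1) is not among the 5. All 5 measured ones, Cyp11a1, Cyp11b1, Cyp11b2, Cyp17a1 and Cyp21a1, had means below the stand-in, and their differences lay from -0.34 to 0.17. Cyp17a1, which makes the androgen precursors, was at 3.33 and 3.55 in vasectomized mice and at 3.27 and 3.28 in sham mice. Among 5 measured markers of steroid-producing cells, Hsd3b1, Hsd3b6 and Mc2r lay below the stand-in and Star and Nr5a1 above it. Nr5a1, a nuclear receptor of steroid-producing cells, was at 5.04 and 5.40 in vasectomized mice and at 4.98 and 4.88 in sham mice (limma adjusted p 0.9997). All 4 measured sterol enzymes lay above the stand-in. Cyp27a1, the mitochondrial sterol hydroxylase, was at 6.58 and 6.66 against 6.80 and 6.59, and Cyp51, which removes a methyl group from lanosterol, at 6.14 and 5.70 against 6.29 and 5.75. Cyp39a1, an oxysterol hydroxylase, reached 6.25 in vasectomy 2, with the other arrays from 5.13 to 5.27, and its difference of 0.43 was -0.13 without vasectomy 2. Cyp27b1, which activates vitamin D, was at 4.99 and 4.82 against 4.79 and 4.72, with no overlap but a difference of 0.15 (standard error 0.16).

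Most measured redox partners of the family lay above the stand-in. Of 12 listed, 8 were measured, and the flavoprotein reductase gene Por is not among the 8. Of these 8, 7 lay above the stand-in, 3 had a higher and 5 a lower mean in vasectomized mice. In limma 0 passed an adjusted p under 0.05 (median difference -0.02). Cytochrome b5 (Cyb5a) was between 7.52 and 7.59 in all 4 arrays, and the mitochondrial ferredoxin gene Fdx1 between 5.81 and 6.22. Pgrmc1, a haem-binding partner of several P450 enzymes, reached 9.48 in vasectomy 2, with the other arrays from 8.28 to 8.76. Of 14 nuclear receptors and other regulators of P450 genes, 9 lay above the stand-in, 8 had a higher and 6 a lower mean, and 0 passed (median difference 0.03). Nr1i2 and Nr1i3, the drug-sensing receptors that control Cyp3a11 and Cyp2b10 in liver, had means below the stand-in. The aryl hydrocarbon receptor gene Ahr was at 7.75 and 7.03 in vasectomized mice and at 7.16 and 7.48 in sham mice, so the groups overlapped.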

How the data were processed

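Total RNA of the prostate from 2 vasectomized and 2 sham mice was measured with 1 Affymetrix array per mouse. Deposited values are log2 signals that the authors obtained by RMA in Affymetrix Expression Console 1.3.1. The log base is not stated and was taken as 2, since the values ran from 0.91 to 13.87. Quantile normalization would hide a shift of most genes. Build and RMA version are not given in the sources used here.

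Gene names came from the annotation of the platform. Of 41345 probe sets, 23521 had 1 symbol, 1820 several and 16004 none, and each of the 22180 symbols was read from its brightest probe set. All 78 members are listed by RefSeq (GRCm38.p6), which has 82 protein-coding symbols of the pattern, of which 5 had only probe sets with several symbols and were not analysed.

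The comparison used lmFit and eBayes of limma 3.58.1 (R 4.3.3) without a block, and p-values were adjusted by Benjamini-Hochberg over 22180 genes, with 0.05 as the threshold. The steps were run on simulated arrays drawn with limma's own fitted spread. None of these was an outlying array like vasectomy 2, so such a case was not covered. Counts of no overlap or of 2-fold differences are descriptions. Summed marker signal is the log2 of the sum over linear values. The methods' t-test left out 12 genes with no spread. Members and lists were chosen with earlier results of these data known. Values are given for the 12 members with the brightest probe sets, the 8 largest differences in each direction above the stand-in, any member 2-fold apart with no overlap and any above the stand-in that spanned more than 2. Alternatives were leaving out each array, the methods' t-test, a block on replicate number, a filter at the stand-in, array weights, a trend with intensity, centring on medians, renewed quantile normalization, the mean of a gene's probe sets, 1.5-fold as the threshold, and the P450 genes outside the pattern added. Nothing says what mice of 1 number share. Figures were drawn with matplotlib 3.10.9.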

Additional observations from a re-analysis of the deposited data

How the results depend on the processing

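No member passed an adjusted p under 0.05 in limma, or after adjustment of the methods' t-test, under any alternative. Among the genes above the stand-in alone, 4 members were higher and 1 was lower with no overlap, and 1 was also at least 2-fold higher, since fewer genes are left. Of all 13556 genes above it, 1767 were higher and 1215 lower with no overlap. At 1.5-fold in place of 2-fold, 3 members were higher and 2 were lower with no overlap, and the share of all genes at this setting was not counted. When each array was left out in turn, 1 array faced 2, so no overlap is likelier by construction. The counts of members with no overlap were then 27 to 37 higher and 10 to 23 lower, and those at least 2-fold apart 1 to 5 higher and 0 to 3 lower. For these counts the shares of all genes were not counted, so whether the members stand out cannot be told. Members above the stand-in that spanned more than 2 numbered 0 to 5, a setting chosen after seeing the data. The median difference stayed between 0.005 and 0.07. Of 239 values of the 20 named members, 14 had the opposite direction, all on leaving out an array, and the cause was not tested. Ranges over the arrays left out were -0.68 to 0.19 for Cyp4f13, -0.21 to 0.05 for Cyp4f17, -0.69 to 0.12 for Cyp4v3, -0.425 to 3.785 for Cyp4a12a, -0.03 to 0.36 for Cyp7b1, -0.28 to 0.32 for Cyp2j6, -0.11 to 1.63 for Cyp2j13, -1.105 to 0.065 for Cyp3a11, -0.48 to 0.22 for Cyp4f18 and -0.445 to 0.695 for Cyp2r1. Cyp2a22, at 0.00 with all arrays, ran from -0.215 to 0.215 and has no direction. No alternative gave the opposite direction for the other 9 named members, among them Cyp2e1, Cyp3a57 and Cyp4a12b. The replicate block gave 0 genes past an adjusted p under 0.05 and a median difference of 0.04 and changed no call. Deviations of mice with the same number correlated at 0.19 over all genes and at -0.07 over the members.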

Other observations

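Of 6 probe sets that carry several symbols with a P450 gene among them, 0 had a mean above the stand-in. The 2 that read Cyp3a11, Cyp3a41a, Cyp3a41b and Cyp3a44 together were between 2.67 and 2.92 and between 3.14 and 3.35 in the 4 arrays. The call of Cyp3a11 as above the stand-in, and its difference, therefore rest on the 1 probe set with its symbol alone. The probe set shared by Klkb1 and Cyp4v3 was between 4.18 and 4.46. The second probe set of Cyp2c55 was between 2.77 and 3.23, whereas the brighter one was between 4.97 and 5.51, so the call of this gene as above the stand-in rests on 1 of its 2 probe sets.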
